A study of Mus musculus with 24 samples.

Results

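The response of the female nucleus accumbens (NAc) to subchronic variable stress (SCVS) was described from 6 libraries of polyadenylated RNA, 3 from stressed females (SF) and 3 from unstressed control females (NSF), out of 24 libraries of messenger RNA and small RNA in the series. Members were chosen by their labels alone, and all 38293 genes of the count table were taken, of which 18593 had enough reads to be tested. All mice were gonadally intact C57BL/6J mice of 9 weeks by the sample labels, and the females were taken in estrus or proestrus. SF mice had gone through consecutive days of alternating foot shock, tail suspension and restraint, with tissue taken on the day after the last stressor, and NSF mice had not. Each library was a pool of 10 bilateral punches of ventral striatum from 5 mice, so that a replicate is a pool, with 3 to a group, and no value belongs to a single mouse. Matched libraries of stressed (SM) and unstressed (NSM) males, again 3 each, entered the same fit and served to test whether an effect differed between the sexes.

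The NAc is the ventral part of the striatum and takes part in reward and motivation. Most of its neurons are GABAergic medium spiny neurons that express D1 or D2 dopamine receptors, and a small number of cholinergic and GABAergic interneurons lie between them. Stress releases glucocorticoids, whose receptor *Nr3c1* binds DNA as a dimer and raises the transcription of targets such as *Fkbp5*, *Sgk1* and *Tsc22d3*.

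Reads counted on genes ranged from 44080541 to 60867747 in the female libraries. The 23 tested markers of medium spiny neurons, among them *Ppp1r1b* and *Drd1a*, together held between 11398 and 13642 CPM (reads scaled to library size with TMM factors, the unit of every level given here), with none regulated and a median log2 fold change of 0.05. The NSF libraries differed from each other in markers of cortical glutamatergic neurons such as *Slc17a7* and *Neurod6*. The 15 markers together had 359.9 CPM in NSF1 and 475 in NSF3, but 107 in NSF2 and 124 to 211 CPM in the SF libraries. NSF1 and NSF3 thus stood apart from the other 4, and the named genes that lost their call when the markers were added to the model are given below with their values. In punches of tissue, fewer cells of a type and less RNA per cell cannot be told apart.

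Differences between the SF and NSF libraries were few and small. A gene was taken as regulated when its unadjusted p was under 0.05 (limma) and its fold change was at least 1.3 in either direction. By this rule 322 of the 18593 tested genes were regulated (1.73%), 119 of them upregulated (0.64%) and 203 downregulated (1.09%). These shares are the background for each count of regulated genes on a list below. With quantile normalization the split was 167 up and 159 down, and without SF1 it was 212 up and 211 down. By limma 786 genes had an unadjusted p under 0.05 (4.23%). That share is below the 0.05 that such a threshold passes when no gene differs. None had a Benjamini-Hochberg adjusted p under 0.05 (smallest 0.948). In this fit every female comparison named here had an adjusted p of at least that value. edgeR's quasi-likelihood test also gave no gene at an adjusted p under 0.05, and DESeq2's Wald test gave 3, *Sgk1*, *Gpr83* and *Myot*, each with an adjusted p of 0.0324.

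The size of the change depended on how many reads a gene had. Among genes with a mean under 10 reads in the female libraries, 78 of 980 were regulated (7.96%), with a median fold change of 2.16. The share was 4.04% from 10 to under 100 reads, 1% from 100 to under 1000 reads and 0.118%, or 9 of 7598 genes, from 1000 reads upwards. Of these 7598 strongly covered genes, 7577 lay within 1.3-fold of no change, and the median absolute log2 fold change was 0.0435. The median standard error of the log2 fold change fell across the same bins from 0.426 to 0.0591, and it is at low read numbers that a gene had to differ most to be called. Of the 322 regulated genes, 208 were protein coding (1.33% of 15651 such genes tested), 25 were pseudogenes (3.36% of 743), 26 were processed transcripts (3.64% of 715) 10 were lincRNAs (2.71% of 369) and 53 were of other classes or unnamed (4.75% of 1115). Levels of SF and NSF libraries did not overlap in 2102 tested genes (11.3%), with SF higher in 911 (4.9%) and lower in 1191 (6.41%). They did not overlap in 237 of the regulated genes.

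**Figure D1:**
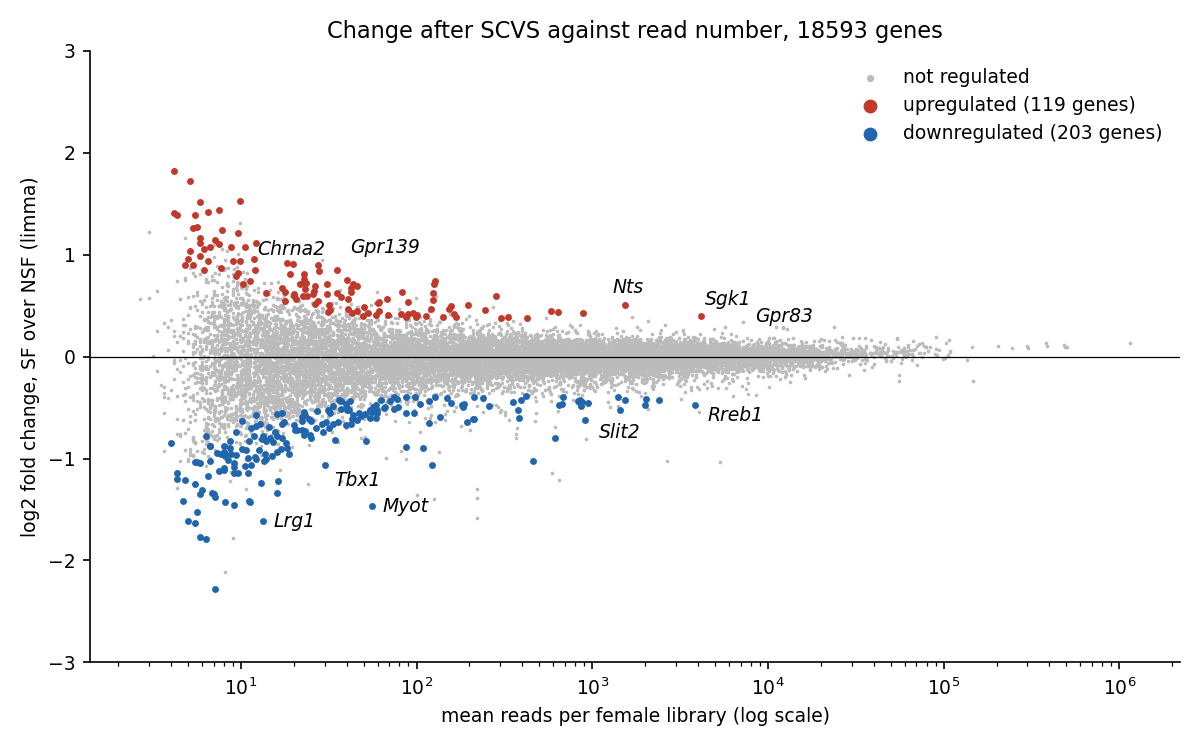
Log2 fold change of SF over NSF (limma) against the mean number of reads in the 6 female libraries (log scale) for each tested gene, with regulated genes in red and blue and others in grey. Regulated genes with fewer than 10 reads lie far from 0, and the 9 with 1000 reads or more lie close to the threshold of 1.3-fold.

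Targets of the glucocorticoid receptor were led by *Sgk1* (serum and glucocorticoid regulated kinase 1, ENSMUSG00000019970), a kinase whose gene the hormone induces directly. It lies on chromosome 10 from 21601990 to 21719709 in build NCBIM37, the build of the count table. *Sgk1* had 68.7, 77.2 and 70.7 CPM in NSF1, NSF2 and NSF3 and 112, 84.8 and 91.0 CPM in SF1, SF2 and SF3. All SF libraries lay above all NSF libraries, SF1 furthest. The mean rose from 72.2 ± 4.46 to 96.1 ± 14.5 CPM (SD, n = 3 libraries), a log2 fold change of 0.40 ± 0.08 (SE). The unadjusted limma p was 0.00027. Without SF1 the log2 fold change was 0.28 and without NSF1 0.37, both under the fold threshold with an unadjusted p under 0.05.

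*Tsc22d3*, which encodes the glucocorticoid-induced leucine zipper protein (ENSMUSG00000031431, chromosome X from 137074067 to 137135198), had 46.1, 44.7 and 51.8 CPM in the NSF libraries and 63.2, 58.4 and 54.5 CPM in the SF libraries. The groups did not overlap, and the log2 fold change of 0.31 ± 0.07 (SE, unadjusted p = 0.000716, limma) was below the fold threshold. *Angptl4*, a secreted inhibitor of lipoprotein lipase, was upregulated from 1.76, 1.32 and 1.59 to 2.203, 1.70 and 2.16 CPM, with SF2 inside the range of the NSF libraries (log2 fold change 0.39 ± 0.15, SE). Its value fell under the thresholds without NSF2 (0.26), SF1 (0.32) or SF3 (0.33). The receptors themselves moved little, *Nr3c1* with a log2 fold change of 0.01 and *Nr3c2*, the mineralocorticoid receptor, with 0.07. The co-chaperone *Fkbp5* had 0.12, the clock gene *Per1* 0.01 and the metallothioneins *Mt1* and *Mt2* -0.07 and -0.09. Of the 20 genes on the list of receptors and targets, 2 were upregulated and none downregulated, where 0.64% and 1.09% of all tested genes were. *Tsc22d3* alone joined the 2 at the unadjusted p without the fold threshold. The log2 fold change was above 0 for 16 of the 20, with a median of 0.12 compared to -0.0039 over all tested genes. Without SF1 none of the 20 was regulated, 13 were above 0 and the median was 0.043.

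The promoters of these genes differ in the letters that the receptor dimer is known to bind, and those of *Sgk1* and *Tsc22d3* are shown for that reason. They are RefSeq windows of build GRCm38.p6 that run from 250 bases before to 50 after an annotated start, read on the gene's strand. Capitals mark the palindrome, GNACA and TGTNC with 3 bases between them, which reads the same on both strands, and the site AGAACA, or TGTTCT on the other strand, which can overlap an arm of it. The first is the *Sgk1* start on the plus strand at chr10:21993640-21993939, and the second the *Tsc22d3* start on the minus strand at chrX:140600473-140600772.
Sgk1: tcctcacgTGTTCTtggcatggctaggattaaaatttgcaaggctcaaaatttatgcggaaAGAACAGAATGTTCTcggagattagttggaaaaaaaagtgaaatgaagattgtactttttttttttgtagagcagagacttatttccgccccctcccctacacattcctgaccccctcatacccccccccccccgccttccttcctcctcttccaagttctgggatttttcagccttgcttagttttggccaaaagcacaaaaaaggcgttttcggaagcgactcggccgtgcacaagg
Tsc22d3: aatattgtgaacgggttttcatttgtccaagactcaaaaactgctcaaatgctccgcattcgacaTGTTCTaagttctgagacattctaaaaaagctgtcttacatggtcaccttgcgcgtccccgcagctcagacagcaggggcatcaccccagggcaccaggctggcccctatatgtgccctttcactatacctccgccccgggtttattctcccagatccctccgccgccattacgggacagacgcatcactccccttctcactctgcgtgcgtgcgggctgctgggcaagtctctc
The *Sgk1* window holds the palindrome once, as GAACAGAATGTTC, beginning 188 bases before the start. The other 5 *Sgk1* windows, the 3 of *Tsc22d3* and the 1 of *Gpr83* do not hold the palindrome. Of the 6 windows of *Sgk1* and the 3 of *Tsc22d3*, those shown are the ones with the most marked letters. Of all 32851 promoter windows 0.475% hold the palindrome and 19% hold AGAACA or TGTTCT. Among 27 windows of 17 genes on the list, 2 hold the palindrome (*Sgk1* and *Mt1*). AGAACA or TGTTCT is in 5 of the 27, a share near that over all windows. A match in letters is not a measurement of binding.

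*Gpr83*, a G protein-coupled receptor of striatal neurons (ENSMUSG00000031932, chromosome 9 from 14664654 to 14675233), had 127, 138 and 120.5 CPM in the NSF libraries and 175, 155 and 158 CPM in the SF libraries. Every SF library lay above every NSF library. The log2 fold change was 0.34 ± 0.07 (SE) (unadjusted p = 0.000216, limma), below the fold threshold, which it passed without NSF2 (0.40) or SF2 (0.38).

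Among peptides, neurotensin (*Nts*, ENSMUSG00000019890, chromosome 10 from 101944394 to 101953052), which acts on dopamine neurons and their targets, was upregulated. It had 24.8, 23.5 and 28.9 CPM in the NSF libraries and 39.6, 40.1 and 29.9 CPM in the SF libraries, where SF3 lay just above the highest NSF library. The log2 fold change was 0.50 ± 0.21 (SE) (unadjusted p = 0.0328, limma). Its p rose above the threshold without NSF1, NSF2, SF1 or SF2, with log2 fold changes of 0.49, 0.44, 0.44 and 0.43. *Nts* was the 1 regulated gene among 19 tested neuropeptides, whose median log2 fold change was 0.06. *Crh*, the peptide that starts the hormonal stress response, had 1.47, 2.46 and 3.40 CPM in the NSF libraries and 2.39, 4.01 and 2.64 in the SF libraries, a spread larger than the log2 fold change of 0.34 ± 0.34 (SE).

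Of 31 peptide receptors, 1 was upregulated and 1 downregulated, where 0.64% and 1.09% of all tested genes were. *Npy2r*, a mainly presynaptic receptor for neuropeptide Y (ENSMUSG00000028004, chromosome 3 from 82342305 to 82352008), had 14.0, 18.0 and 13.5 CPM in the NSF libraries and 20.02, 21.5 and 19.6 CPM in the SF libraries. All 3 SF libraries were higher than the NSF libraries (log2 fold change 0.42 ± 0.13, SE), and without NSF3 the log2 fold change was 0.34, under the fold threshold. *Npy6r*, another receptor of that family, was downregulated (log2 fold change -1.15) on a mean of 4.33 reads, with NSF1 alone well above the others at 0.248, 0.0660 and 0.0850 CPM against 0.0847, 0.0196 and 0.0437 CPM. It was no longer regulated without NSF1 (-0.65), SF2 (-0.70) or SF3 (-1.18). The dynorphin receptor *Oprk1* was higher in every SF library (73.6, 60.0 and 63.8 CPM) than in the NSF libraries (59.6, 56.7 and 50.5 CPM), with a log2 fold change of 0.24 (unadjusted p = 0.00686, limma) that did not reach 1.3-fold. The neuropeptide Y receptor *Npy1r* was lower in every SF library (-0.14, unadjusted p = 0.140, limma).

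Of 16 tested genes of cholinergic transmission, 3 were higher and 0 lower in the SF libraries without overlap. Over all tested genes, 4.9% were higher and 6.41% lower without overlap. With overlapping genes counted too, 10 of the 16 were higher and 6 lower in the SF group. *Chrna2*, a nicotinic receptor subunit (ENSMUSG00000022041, chromosome 14 from 66759797 to 66771785), was upregulated from 0.316, 0.445 and 0.446 CPM to 0.572, 0.763 and 0.874 CPM (log2 fold change 0.84 ± 0.25, SE) on a mean of 28 reads, and it stayed regulated in each of the 6 fits that left out a female library. *Chat*, the enzyme that makes acetylcholine and the defining marker of cholinergic interneurons, had 16.5, 20.1 and 16.0 CPM in the NSF libraries and 20.8, 20.6 and 21.3 CPM in the SF libraries. Its log2 fold change was 0.25 ± 0.08 (SE, unadjusted p = 0.00862, limma). The choline transporter *Slc5a7*, used by the same cells, had 0.19 (unadjusted p = 0.0405, limma), also without overlap. *Chrna4* moved the other way, with 21.6, 14.8 and 25.0 CPM in the NSF libraries and 15.1, 14.1 and 16.5 CPM in the SF libraries (log2 fold change -0.38, just short of the fold threshold, unadjusted p = 0.0256, limma), and its NSF values were high in the 2 libraries rich in cortical markers. *Colq*, the collagen tail that anchors acetylcholinesterase, which was not on the list, was upregulated from 0.158, 0.478 and 0.404 CPM to 0.551, 0.548 and 0.634 CPM (log2 fold change 0.81, on a mean of 23 reads). It was no longer regulated without NSF1 (0.38), SF1 (0.83), SF2 (0.85) or SF3 (0.74). Of the 16 tested cholinergic genes, 1 was upregulated, none was downregulated, and the median log2 fold change was 0.04. With edgeR, DESeq2 or scaling by library size only, and without NSF2 or SF3, 1 of the 16 was downregulated.

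Receptors of other transmitters held few changes. None of 11 dopamine genes, 16 ionotropic glutamate receptor genes or 14 GABA-A receptor genes was regulated. The kainate receptor subunit *Grik3* was lower in every SF library (141, 141 and 143 CPM) than in the NSF libraries (178, 149 and 183 CPM), a log2 fold change of -0.26 (unadjusted p = 0.00232, limma). Its level was highest in NSF1 and NSF3, the libraries rich in cortical markers, and NSF2 lay closer to the SF libraries. Of 13 serotonin receptors, *Htr2b* was downregulated from 0.225, 0.247 and 0.212 CPM to 0.148, 0.0782 and 0.109 CPM (log2 fold change -1.02), on a mean of 8.50 reads, and its value without SF2 (-0.78) was no longer past the threshold for p. *Htr4* had 9.08, 10.2 and 9.13 CPM against 13.3, 13.8 and 10.3 CPM, with SF3 close to the highest NSF library (log2 fold change 0.38, unadjusted p = 0.0783, limma).

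**Figure D2:**
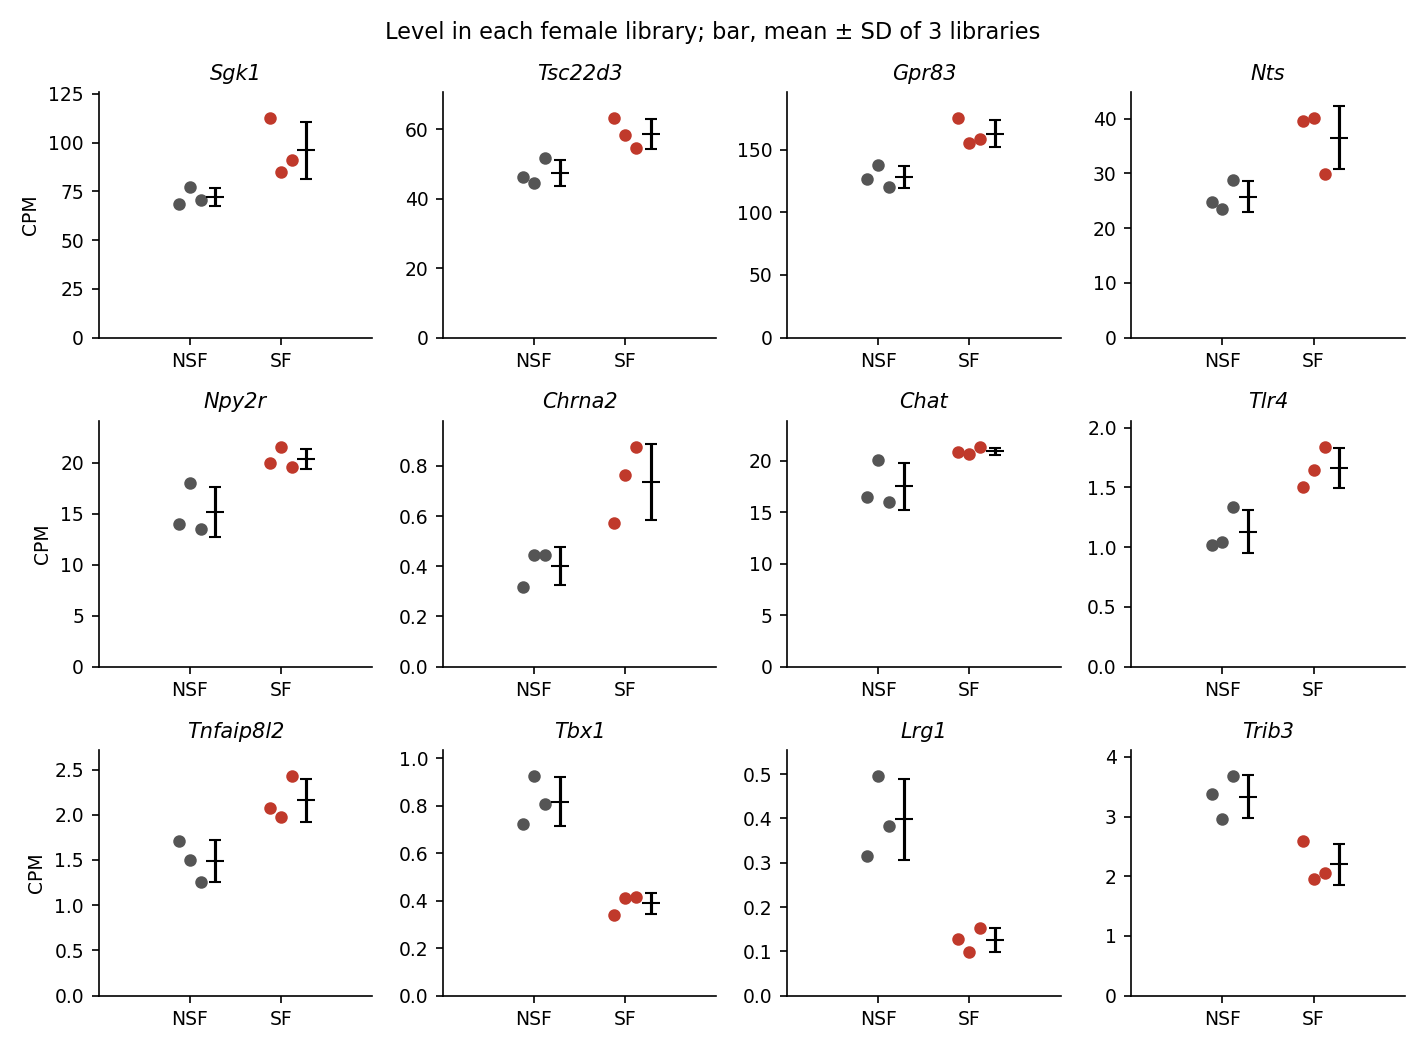
Level in CPM of 12 genes in each of the 3 NSF libraries (grey points) and 3 SF libraries (red points), with the mean and SD of each group as a black bar. In each gene shown the points of the groups do not overlap, and SF1 for *Sgk1* and SF3 for *Nts* (the first and last of their red points) lie apart from the other SF libraries.

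Innate immune genes moved in both directions. *Tlr4*, the receptor for bacterial lipopolysaccharide (ENSMUSG00000039005, chromosome 4 from 66488618 to 66591318), was upregulated from 1.01, 1.04 and 1.34 CPM to 1.504, 1.64 and 1.84 CPM, each SF library lying above each NSF library (log2 fold change 0.56 ± 0.16, SE, unadjusted p = 0.00405, limma). *Tnfaip8l2*, which restrains Toll-like receptor signaling (ENSMUSG00000013707, chromosome 3 from 94943443 to 94946282), was upregulated from 1.71, 1.501 and 1.25 CPM to 2.08, 1.98 and 2.42 CPM (log2 fold change 0.54 ± 0.15, SE). Both stayed regulated in every alternative fit with the unadjusted p. *Tlr7*, a sensor of single-stranded RNA, came close to the fold threshold with 0.37 (unadjusted p = 0.00187, limma) and no overlap, and *Cd14*, the co-receptor of *Tlr4*, had 0.31 (unadjusted p = 0.0489, limma). The B cell chemokine *Cxcl13* was downregulated from 0.451, 0.330 and 0.319 CPM to 0.212, 0.235 and 0.153 CPM (log2 fold change -0.82, 14.0 reads on average). It was not regulated without NSF1 (-0.68) or SF3 (-0.66). In all, 2 of 25 Toll-like receptor and cytokine genes were upregulated and 1 downregulated, where 0.64% and 1.09% of all tested genes were. The median log2 fold change of the list was 0.04.

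Genes of the interferon response and of antigen presentation were downregulated where they were regulated. Among 26 interferon response genes these were the GTPase *Gbp4* (1.78, 1.27 and 1.66 CPM in the NSF and 0.911, 1.10 and 1.25 CPM in the SF libraries, log2 fold change -0.50) and *Ifi44* (0.586, 0.528 and 0.552 against 0.339, 0.274 and 0.546 CPM, log2 fold change -0.57). Among 19 antigen presentation genes it was *Ciita*, the transactivator of MHC class II genes (1.601, 1.72 and 1.78 against 1.10, 1.66 and 1.16 CPM, log2 fold change -0.39). *Gbp4* was without overlap, whereas SF3 for *Ifi44* and SF2 for *Ciita* lay within the NSF range. The call of *Gbp4* was lost without SF1 (-0.39), that of *Ciita* without NSF2 (-0.39), NSF3 (-0.36), SF1 (-0.28) or SF3 (-0.32), and that of *Ifi44* without any library but SF3, at log2 fold changes of -0.35 to -0.62. The medians of both lists, -0.03 and -0.01, were near that of all genes. Of all tested genes 1.09% were downregulated. *Gbp4*, *Ifi44* and *Ciita* had means from 10 to under 100 reads, where 4.04% of tested genes were regulated in either direction.

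Markers of microglia, the resident immune cells of the brain, were higher in the SF group for 14 of 14 genes, with a median log2 fold change of 0.14, and none was regulated. *Ctss* had the smallest p, with a log2 fold change of 0.23 (unadjusted p = 0.0266, limma), and *Csf1r* had 0.11. Summed over the list, levels were 468 to 497 CPM in the NSF libraries and 488 to 572 CPM in the SF libraries, and the part of this in the values of *Tlr4*, *Tlr7*, *Cd14* and *Tnfaip8l2* was not tested. Without SF3 the median was 0.076 and 13 of 14 were higher. *Cybb*, the catalytic subunit of the phagocyte NADPH oxidase, was upregulated from 0.361, 0.198 and 0.276 CPM to 0.381, 0.411 and 0.502 CPM (log2 fold change 0.68, 17.2 reads on average). Its call was lost without NSF2 (0.43), NSF3 (0.71), SF2 (0.72) or SF3 (0.57).

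Immediate early genes, which neurons transcribe within minutes of activity, were lower in the SF group for 24 of 26 genes, with a median log2 fold change of -0.17. Only *Npas4*, an activity-dependent transcription factor of neurons, was regulated. It had 21.3, 15.5 and 32.2 CPM in the NSF libraries and 16.7, 11.4 and 15.1 CPM in the SF libraries, and the groups overlapped because NSF2 was below SF1 (log2 fold change -0.62 ± 0.27, SE). NSF3 was highest for *Npas4* and for the sum of the list, 1343 CPM compared to 907 to 1090.0 in the other 5 libraries. Without NSF3 the median of the list was -0.024, 15 of 26 were lower and none was regulated. Its log2 fold change was -0.47 with the cortical markers in the model and -0.13 with NSF2 as the only control library, neither regulated. *Npas4* was also no longer regulated without NSF1 (-0.63), SF2 (-0.45) or SF3 (-0.66), and without NSF3 it had -0.34. *Fosb* had a log2 fold change of -0.07 and was at 15.6, 16.0 and 20.5 CPM against 19.9, 14.3 and 15.5 CPM.

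Of 17 genes of the unfolded protein response, 15 were lower in the SF group and the median log2 fold change was -0.11. *Trib3*, a pseudokinase induced by stress of the endoplasmic reticulum, was downregulated from 3.38, 2.95 and 3.67 CPM to 2.58, 1.96 and 2.05 CPM, each SF library lying below each NSF library (log2 fold change -0.60 ± 0.19, SE, unadjusted p = 0.00684, limma). The chaperone *Hspa5* had -0.18 and the protein disulfide isomerase *Pdia6* -0.12, with unadjusted p values of 0.0401 and 0.0428 (limma). *Trib3* stayed regulated in all 6 fits that left out a female library. None of 17 heat shock chaperone genes was regulated (median 0.04), and 13 were higher and 4 lower in the SF group. *Hsf1*, the factor that drives them, was the 1 that was lower without overlap (-0.24, unadjusted p = 0.0339, limma). Without overlap, 3 were higher. Over all tested genes, 4.9% were higher and 6.41% lower without overlap.

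Among 18 circadian clock genes none was regulated, while 5 had a higher and 1 a lower level at the unadjusted p alone, where 1.94% and 2.29% of all tested genes did. The higher ones were *Bhlhe41* (0.19), *Rora* (0.17), *Hlf* (0.16), *Nr1d2* (0.12) and *Tef* (0.11), and the lower one was the repressor *Nfil3* (-0.25). The 12 tested mitochondrially encoded genes were higher with log2 fold changes from 0.083 to 0.19, and none was regulated. With quantile normalization 10 of these 12 were higher and their median was 0.

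**Figure D3:**
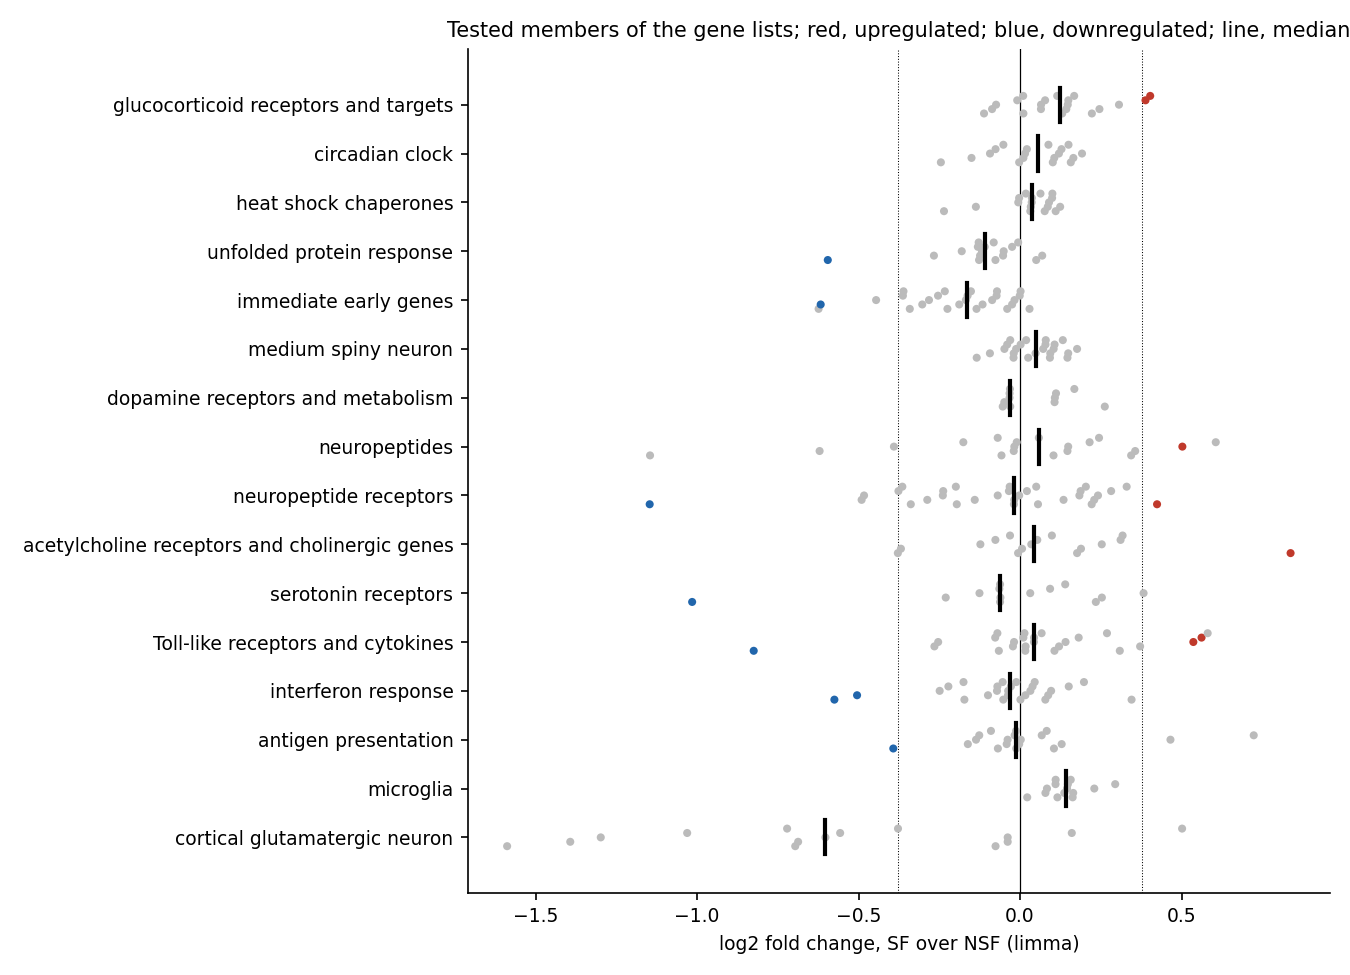
Log2 fold change of SF over NSF (limma) of each tested member of 16 gene lists, with regulated members in red and blue, list medians as vertical bars and the threshold of 1.3-fold as dotted lines. Glucocorticoid targets and microglia markers lie mostly to the right of 0, and immediate early genes, unfolded protein response genes and cortical markers mostly to the left.

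The largest increases among regulated genes with a mean of at least 10 reads, no overlap and a symbol other than a clone or gene model name were between 0.62 and 0.85 on the log2 scale, all in genes with a mean of at most 44 reads. The first was *Gpr139*, an orphan receptor of the brain (ENSMUSG00000066197, chromosome 7 from 126287837 to 126327888), with 0.361, 0.660 and 0.489 CPM in the NSF libraries and 0.678, 0.978 and 1.14 CPM in the SF libraries (standard error 0.26, unadjusted p = 0.00620, limma). It was followed by *Mb*, the oxygen carrier myoglobin (0.85), *Chrna2*, *Colq* and *Expi* (0.72). *Retn*, the hormone resistin, had 0.721, 0.792 and 0.489 CPM against 1.14, 0.959 and 1.20 CPM (0.72 ± 0.21, SE), and *Mdfi*, an inhibitor of myogenic transcription factors, 0.383, 0.412 and 0.425 against 0.720, 0.606 and 0.677 CPM (0.70 ± 0.19, SE). *Dmrtb1* (0.71), *Cybb*, *Gsto2* (0.64), *Nkpd1* (0.62) and *Vma21-ps* (0.62, unadjusted p = 0.0498, limma) completed the 12. The call was lost for *Vma21-ps* in every fit without a female library but that without NSF1, at log2 fold changes of 0.47 to 0.67. It was lost for *Mb* without NSF1 (0.81), NSF2 (0.81) or SF2 (0.69), for *Expi* without NSF2 (0.58) or SF2 (0.41), for *Gsto2* without NSF1 (0.49) and for *Nkpd1* without SF2 (0.51). *Gpr139*, *Chrna2*, *Retn*, *Dmrtb1* and *Mdfi* stayed regulated in all 6 fits that left out a female library.

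The largest decreases were between -1.61 and -0.91 on the log2 scale. *Lrg1*, a secreted glycoprotein of vessels and the acute phase (ENSMUSG00000037095, chromosome 17 from 56259103 to 56261369), fell from 0.316, 0.495 and 0.382 CPM to 0.127, 0.0978 and 0.153 CPM (log2 fold change -1.61 ± 0.40, SE, unadjusted p = 0.00124, limma). *Tbx1*, a T-box transcription factor (ENSMUSG00000009097, chromosome 16 from 18581806 to 18588113), had 0.721, 0.924 and 0.807 CPM in the NSF libraries and 0.339, 0.411 and 0.415 CPM in the SF libraries, with every SF library under 0.42 CPM. Its log2 fold change was -1.07 ± 0.21 (SE), and its unadjusted p of 0.000174 was the second smallest of all tested genes by limma. The smallest, 0.000112, was that of *Gm12494*, a pseudogene with 4.17 reads on average, which had 1, 2 and 2 reads in the NSF libraries and 7, 6 and 7 reads in the SF libraries. *AI504432*, a protein-coding gene model, had the fourth smallest p, with 20.9, 19.6 and 19.6 CPM in the NSF libraries and 16.4, 16.7 and 16.8 CPM in the SF libraries, no overlap and a log2 fold change of -0.27, under the fold threshold. *Myot*, a protein of the muscle Z disc (ENSMUSG00000024471), had 1.76, 1.19 and 2.17 CPM against 0.508, 0.665 and 0.568 CPM (log2 fold change -1.46 ± 0.33, SE).

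Other genes with large decreases were *Capza3* (-1.42 ± 0.36, SE), *Taf7l* (-1.34 ± 0.37, SE) and *Adam18* (-1.24 ± 0.39, SE), with means between 11 and 16 reads. The photopigment melanopsin, *Opn4* (-1.07), the sodium chloride transporter *Slc12a3* (-0.996), the lymphocyte receptors *Ccr10* (-0.99) and *Cd27* (-0.95), *Magix* (-0.94) and *Pcdh12* (-0.91) completed the 12. *Lrg1*, *Myot*, *Capza3*, *Taf7l*, *Adam18*, *Tbx1* and *Slc12a3* stayed regulated in all 6 fits that left out a female library. The call was lost for *Opn4* without NSF1 (-0.99) or SF2 (-0.71), for *Ccr10* without NSF2 (-0.84) or SF1 (-0.74), for *Cd27* without SF1 (-0.69), for *Magix* without SF3 (-0.63) and for *Pcdh12* without NSF3 (-0.74) or SF3 (-0.77). For *Cd27*, 6 of 15 lymphocyte markers were tested, the T cell marker *Cd3e* had too few reads for a test, and the summed level was 54.6 to 66.6 CPM in the NSF and 59.3 to 73.3 CPM in the SF libraries.

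Of the 9 regulated genes with a mean of at least 1000 reads, *Sgk1* and *Nts* were upregulated and 7 downregulated. *Rreb1*, a zinc finger transcription factor (ENSMUSG00000039087, chromosome 13 from 37870269 to 38043871), had 93.8, 83.3 and 95.0 CPM in the NSF libraries and 73.1, 66.5 and 57.1 CPM in the SF libraries, without overlap (log2 fold change -0.47 ± 0.16, SE), and -0.38 without SF3, which was above the p threshold. *Neat1*, the long noncoding RNA of nuclear paraspeckles, was also without overlap (-0.40 ± 0.15, SE). The others, *Ipcef1* (-0.52), *Slit2* (-0.47), *Etl4* (-0.43), *Crtac1* (-0.42) and *Stard5* (-0.41), overlapped in at least 1 library. *Ipcef1* had 40.6, 21.1 and 46.0 CPM in NSF1, NSF2 and NSF3 and 22.1, 24.9 and 23.1 CPM in the SF libraries. *Crtac1* had 38.5, 28.1 and 42.8 CPM against 24.3, 25.1 and 30.9 CPM. Both were highest in NSF1 and NSF3, the libraries rich in cortical markers. *Ipcef1*, *Crtac1* and *Neat1* are named here because they complete the 9, after their values were seen. Their values in the alternative fits are not given here. *Stard5* was not regulated without NSF1 (-0.32), SF2 (-0.34) or SF3 (-0.26). *Myo3b*, a class III myosin, was the other upregulated gene of highest level after *Sgk1*, *Nts* and *Npy2r*, with 10.7, 12.4 and 9.54 CPM in the NSF libraries and 14.3, 14.4 and 16.0 CPM in the SF libraries. It was without overlap (log2 fold change 0.44 ± 0.11, SE), and without NSF3 its log2 fold change was 0.35, under the fold threshold.

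Several downregulated genes were high in the same NSF libraries as the cortical markers. *Wnt7b*, a Wnt ligand (ENSMUSG00000022382, chromosome 15 from 85365869 to 85412251), had 21.6, 13.8 and 24.9 CPM in NSF1, NSF2 and NSF3 and 11.6, 14.5 and 16.6 CPM in the SF libraries, so that NSF2 lay among the SF libraries (log2 fold change -0.45). *Etl4* had 57.8, 42.8 and 69.9 CPM against 37.5, 40.7 and 46.3 CPM, and the axon guidance protein *Slit2* 53.1, 36.4 and 53.5 CPM against 33.4, 37.1 and 30.7 CPM, with the same low NSF2. *Plekha2* had 17.0, 12.7 and 18.0 CPM against 10.4, 12.4 and 12.8 CPM (log2 fold change -0.39). When the mean level of the cortical markers was added to the model, an alternative chosen after seeing the data, the log2 fold changes became -0.26 for *Wnt7b*, -0.24 for *Etl4*, -0.26 for *Plekha2* and -0.38 for *Slit2*, which alone stayed regulated. With NSF2 as the only control library they were 0.03, -0.05, -0.10 and -0.11. Without NSF3, *Wnt7b* had -0.27, *Etl4* -0.26, *Plekha2* -0.29 and *Slit2* -0.38, none of them regulated, *Slit2* by a value just under the fold threshold. The calls of *Wnt7b* and *Plekha2* were also lost without NSF1 (-0.37 and -0.33) and without SF1 (-0.31 and -0.30), and that of *Etl4* without SF1 (-0.36).

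**Figure D4:**
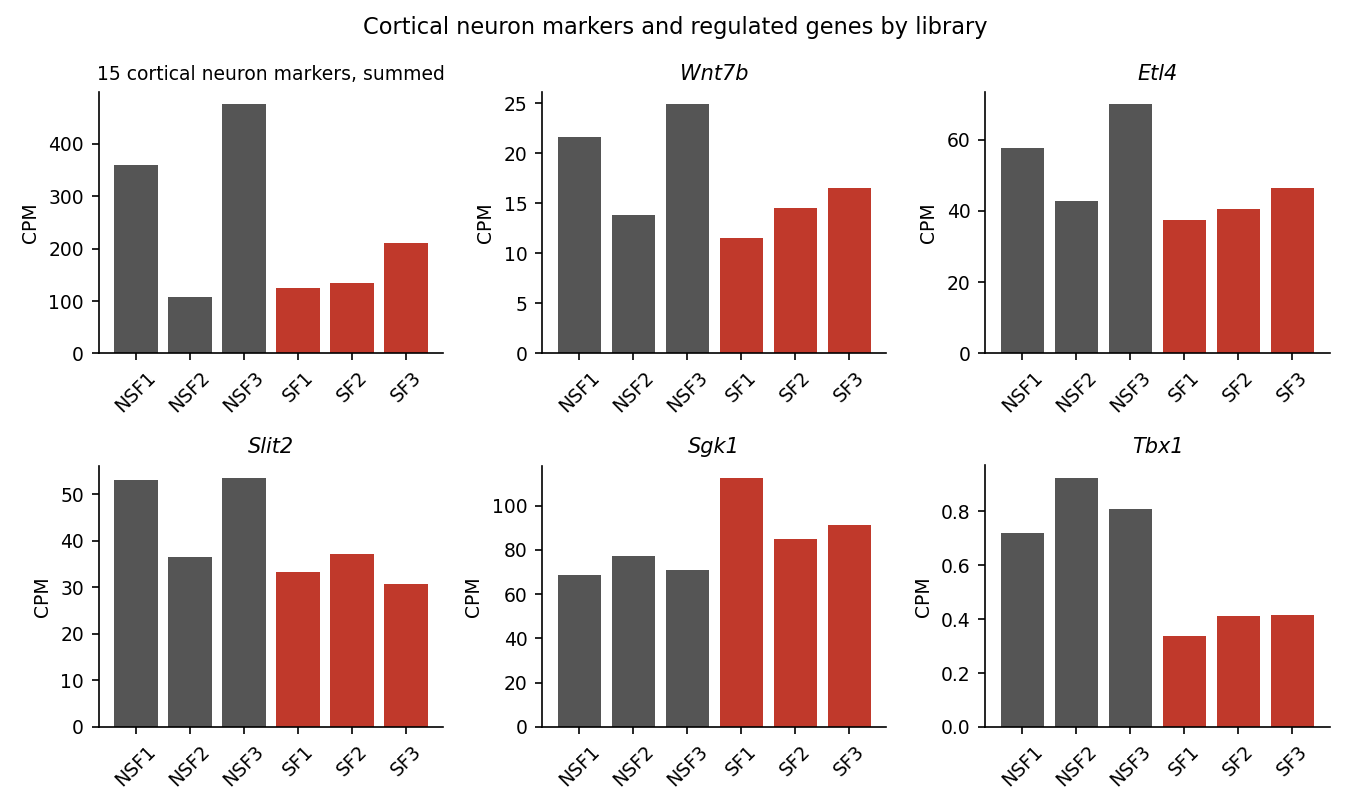
Summed level of the 15 cortical glutamatergic neuron markers and level of 5 regulated genes, in CPM, as bars for each of the 6 female libraries (grey NSF, red SF). *Wnt7b*, *Etl4* and *Slit2* are high in NSF1 and NSF3, as the markers are, whereas in *Sgk1* and *Tbx1* the 3 NSF libraries lie close together.

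Over all genes, 258 were regulated with the cortical markers in the model, 115 up and 143 down, and 193 of these were among the 322. They included 80 of the 119 upregulated and 113 of the 203 downregulated genes. *Tlr4*, *Tnfaip8l2*, *Chrna2*, *Trib3*, *Tbx1*, *Lrg1* and *Myot* were among those that stayed regulated, and *Sgk1* (0.36) and *Npy2r* (0.34) fell under the fold threshold. Of the 52 named regulated genes 38 stayed regulated. Besides *Sgk1*, *Npy2r*, *Wnt7b*, *Etl4* and *Plekha2*, those that did not were *Nts* (0.44), *Npas4* (-0.47), *Opn4* (-0.93), *Colq* (0.65), *Npy6r* (-1.02), *Ifi44* (-0.53), *Mstn* (-0.48), *Gbx1* (0.44) and *Vma21-ps* (0.60). Without NSF2, in contrast, 647 genes were regulated, 189 up and 458 down, and 61 had an adjusted p under 0.05 (limma), 57 of them lower in the SF group. Of these 61 genes, 1 was among the 15 cortical markers. By limma none of the 15 cortical markers was regulated with all libraries, 13 were lower and the median log2 fold change was -0.60, and without NSF2 10 of them were downregulated with a median of -1.58.

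Genes of Wnt signaling outside this pattern included *Dkk2*, a secreted Wnt inhibitor, which was downregulated from 0.721, 1.600 and 0.977 CPM to 0.784, 0.606 and 0.721 CPM (log2 fold change -0.62) with NSF2 highest, and without NSF2 it was -0.27 and not regulated. It was also not regulated without SF2 (-0.51) or SF3 (-0.65). Of 39 Wnt genes, 2 were downregulated and none upregulated, where 1.09% and 0.64% of all tested genes were. None of 15 DNA methylation genes and none of 21 sex steroid receptor and enzyme genes was regulated. Marker lists of other cell types held 1 regulated gene each or none. The astrocyte gene *Agt*, angiotensinogen, was upregulated (3.36, 4.47 and 5.48 against 3.79, 8.55 and 8.76 CPM, log2 fold change 0.59) and lost its call without NSF1 (0.43), NSF2 (0.61), SF2 (0.40) or SF3 (0.40), while the 12 astrocyte markers had a median of 0.08. *Gbx1*, a homeobox gene on the list for septal, pallidal and hypothalamic neurons, was upregulated (0.47) and lost its call without NSF1 (0.36), NSF3 (0.44), SF2 (0.34) or SF3 (0.37). No gene was regulated on the lists for oligodendrocytes, endothelium, smooth muscle and pericytes, meningeal fibroblasts, choroid plexus, erythroid cells and striatal interneurons.

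Of the genes the study took on to qPCR, 11 were tested, and 5 were upregulated and 1 downregulated. They were chosen by the study from these same libraries, some for the effect in females and some for that in males. Their levels in these libraries are therefore no independent evidence of direction. The paper also measured the genes by qPCR in individual mice of other cohorts. It reports significant differences after stress for all of them but *Lynx1*. *Crh*, *Fosb*, *Lynx1*, *Adcy1* and *Reln*, which were not regulated in females, were all regulated in males. Beside *Tlr4*, *Tnfaip8l2*, *Sgk1* and *Npy2r*, *Fmo2*, a flavin monooxygenase, was upregulated from 0.902, 1.09 and 0.998 CPM to 1.55, 1.41 and 1.40 CPM (log2 fold change 0.53 ± 0.16, SE) and stayed regulated in all 6 fits that left out a female library. *Mstn*, myostatin, was downregulated from 0.766, 0.429 and 0.510 CPM to 0.360, 0.391 and 0.350 CPM (-0.54), with NSF1 highest, and it was regulated in 1 of those 6 fits, its value without NSF1 being -0.32. *Lynx1* (-0.01), *Adcy1* (-0.18) and *Reln* (0.20) had small effects with all female libraries, and *Reln* was upregulated without NSF2 (0.42).

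The same fit allowed a test of whether the effect in females differed from that in males. In males 1198 genes were regulated (6.44%), and 73 genes were regulated in both sexes, which is 22.67% of the female and 6.093% of the male genes. Of these 49 moved in the same direction and 24 in opposite directions. The difference between the effects, the sex-by-stress interaction, was past the same thresholds for 822 genes (4.42%) and for 104 of the 322. The 322 were chosen by the female effect, which is part of this difference, so their higher share follows in part from that choice. The interaction had an adjusted p under 0.05 (limma) for 5 genes (0.0269%), of which *Tsc22d3* is a glucocorticoid target. That count of 5 fell to 0 without NSF1, SF1, SF2 or SF3, was 3 without NSF3 and rose to 218 without NSF2. *Tsc22d3* had a log2 fold change of 0.31 in females and -0.40 in males. For *Nts* the values were 0.50 and -0.90 (interaction 1.40, unadjusted p = 0.00039, limma), and for *Npy2r* 0.42 and -0.26 (0.68, unadjusted p = 0.00281, limma). For *Sgk1* the values were 0.40 in females and 0.26 in males (interaction 0.14, unadjusted p = 0.251, limma).

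*Chrna2* had an effect of 0.84 in females and -0.39 in males, and *Tlr4* one of 0.56 and -0.02, both with an interaction past the thresholds. *Adam18* (-1.24 and 1.25), the membrane protease *St14* (-0.67 and 0.75) and *Myot* (-1.46 and 0.29) had opposite signs in the sexes. So did *Etl4* (-0.43 and 0.52), *Plekha2* (-0.39 and 0.47) and *Wnt7b* (-0.45 and 0.42). The cortical markers moved in the same directions as each of these genes, with a median of -0.60 in females and 2.202 in males. The fit with the markers in the model covered these differences too, but its interaction values for single genes are not given here. The call of *St14* in females was lost without NSF1 (-0.56). The effects on *Gpr139* differed by less than their error (0.85 and 0.91, interaction -0.06 with a standard error of 0.39), and *Rreb1* was downregulated in both sexes (-0.47 and -0.79).

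**Figure D5:**
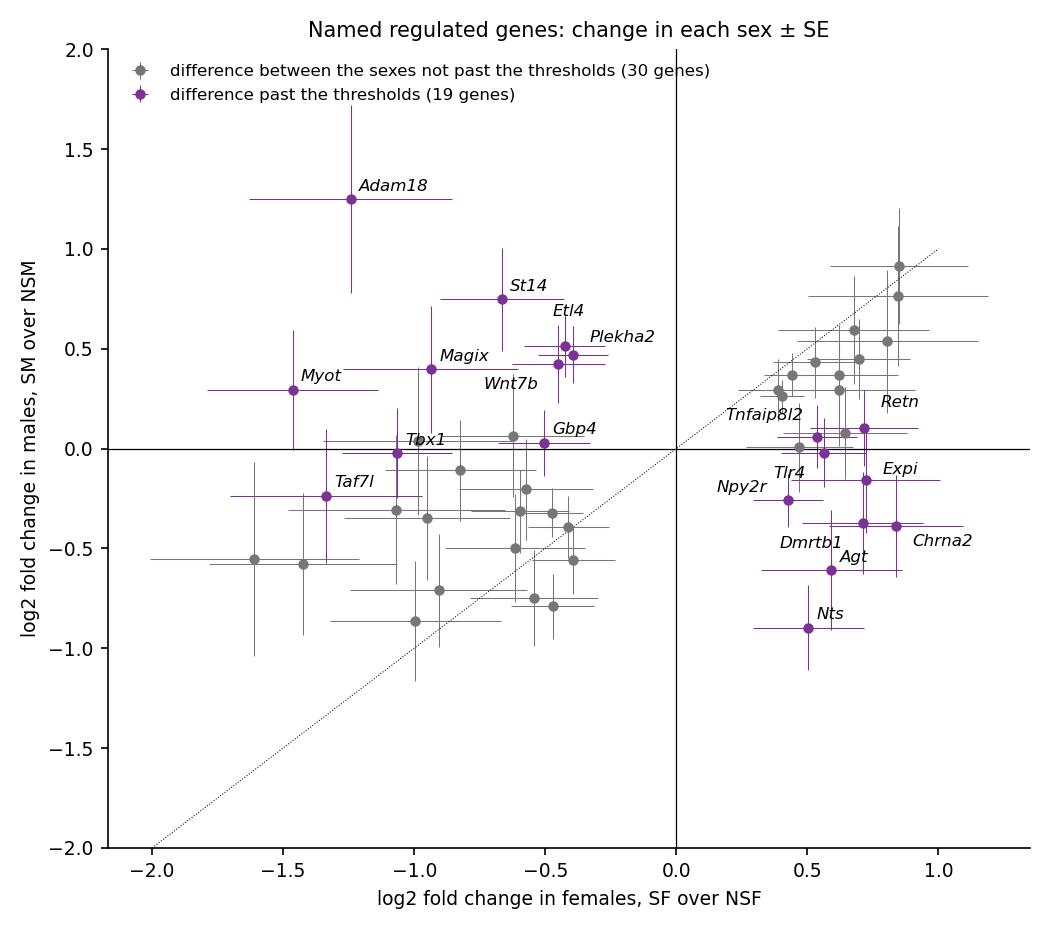
Log2 fold change after SCVS in males (SM over NSM) against that in females (SF over NSF) with standard errors, for the 49 named genes that were regulated in females and had a mean of at least 10 reads. The 19 genes in purple, whose difference between the sexes was past the thresholds, lie off the dotted line of equal effects, *Nts* and *Agt* below 0 in males and *St14* and *Adam18* above. Their distance from that line is set by the thresholds that chose them.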

How the data were processed

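The authors prepared TruSeq libraries from RNA above 200 bases, aligned paired reads by TopHat2 (build NCBIM37, Ensembl genes) and counted them per gene with HTSeq, per the paper's methods and the submitters' processing notes. The deposited values are raw read counts per Ensembl gene. The strand setting is not given in the sources used here, so overlapping genes on opposite strands cannot be told apart. Symbols and coordinates came from the GENCODE annotation of NCBIM37 by identifier (17795 of 18593 tested genes); promoters came from RefSeq (GRCm38.p6). Small RNA libraries were not used here.

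Genes that exceeded 5 reads in 80% or more of any condition's libraries were scaled by TMM factors and fitted with voom and limma over all 12 mRNA libraries, with one mean per group. R 4.3.3, limma 3.58.1, edgeR 4.0.16, DESeq2 1.42.0, Python 3.11.15, pandas 2.3.3 and matplotlib 3.10.9 were used, and the steps were tested on simulated data. P values were adjusted over all tested genes by the Benjamini-Hochberg method. Since nothing says that pools of a group came from separate cohorts, p values measure the spread between these pools; an exact permutation test of 3 against 3 libraries cannot go below 0.1 and was not used. The SD of a gene's scaled log2 level between libraries had a median over tested genes of 0.0987 (NSF) and 0.0939 (SF). No library was left out, and none were duplicates.

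Genes were named by rule: those with the 12 largest changes in each direction (regulated, at least 10 reads on average, no overlap, no gene model name), every regulated gene on a list, the 4 regulated genes with the highest level in each direction, the 5 smallest p values, the genes measured by qPCR, and the 6 smallest interaction p values among regulated genes. Other list members are given as examples. The members and lists were chosen with earlier results of these data known. Other tests, scalings, filters, the female libraries alone, library weights, a replicate block and leaving out each female library were tried.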

Additional observations from a re-analysis of the deposited data

Results flagged for a closer look

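Among the genes named above or on the lists, 2 had an effect of SCVS that differed between females and males at an adjusted p under 0.05 (limma), as tested by the sex-by-stress interaction. *Tsc22d3* had a difference of 0.71 on the log2 scale (adjusted p = 0.0328, limma), with 0.31 in females, where 3 of 3 SF libraries were higher than the NSF libraries, and -0.40 in males. *Chordc1*, a co-chaperone on the heat shock list, had a difference of 0.59 (adjusted p = 0.0328, limma), with -0.00 in females and -0.59 in males. The other 3 genes with such an interaction, *Banp*, *Slc5a3* and *Cables1*, were on no list and are named after their values were seen. Without NSF1, SF1, SF2 or SF3 no interaction had an adjusted p under 0.05 (limma), without NSF3 there were 3 and without NSF2 218, and DESeq2 gave 135 with all libraries. With the cortical markers in the model no interaction had an adjusted p under 0.05, and 574 genes had one past the unadjusted thresholds.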

How the results depend on the processing

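The main counts were 322 regulated genes, 119 up and 203 down. DESeq2's Wald test gave 194 (60 up, 134 down; 3 at an adjusted p under 0.05). Testing every gene with 1 read or more anywhere gave 865 (373 up, 492 down; 1350 interactions), and asking for 10 reads in every library gave 205 (125 down). Library quality weights gave 531 (355 down). Without a fold threshold there were 786 (361 up, 425 down) and 1775 interactions, and with an adjusted p in place of the unadjusted one 0 (0 up, 0 down) and 5 interactions. Leaving out 1 female library at a time gave 266 to 647 genes, 101 to 212 up and 155 to 458 down, 0 to 61 at an adjusted p under 0.05 672 to 1103 interactions and 0 to 218 of these at an adjusted p under 0.05, NSF2 being the library that moved the count most. The cause was not tested.

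Same-numbered female libraries deviated together with correlations of 0.1, 0.0756 and 0.107, so the numbers were not taken as pairs. With a replicate block 362 genes were regulated (110 up, 252 down), none at an adjusted p under 0.05, and 896 interactions were past the thresholds.

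Of the 52 named regulated genes, 51 kept their direction in every alternative fit, 17 stayed regulated in all 6 fits that left out a library and 10 in every alternative fit with the unadjusted p in which they were tested. They were chosen as regulated in these same libraries, which in part fixes their direction. For genes without overlap, leaving out 1 library can hardly reverse it. With NSF2 as the only control library, chosen after seeing the data, *Wnt7b* changed sign (0.0257), as did *Fosb* (0.036), *Lynx1* (0.049), *Adcy1* (0.072) and *Reln* (-0.22), which were not regulated. *Fosb* also did so without 1 library (-0.21 to 0.0503), and *Lynx1* likewise (-0.086 to 0.044), with DESeq2's test (0.0032), DESeq2 size factors (3.5e-05), quality weights (0.016) and cortical markers in the model (0.036).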
